A study of Homo sapiens with 18 samples.

Results

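The ATG8 proteins and the receptors that bind them were followed as a group of 10 genes, named by symbol: MAP1LC3B, GABARAP, GABARAPL1, GABARAPL2, SQSTM1, NBR1, OPTN, TAX1BP1, CALCOCO2 and TP53INP2. A gene was included when the RefSeq identifier of its row in the deposited counts mapped to one of these symbols. Of the 10 symbols 9 had such a row among the 20802 targets of the panel, and no row was matched to MAP1LC3B, whose expression was not analysed here. All 9 genes passed the filter on low counts and were among the 10246 genes tested. RKO cells, an established human colorectal carcinoma line, received 30 nM of 1 of 6 siRNAs and were harvested 72 h later. The controls were the nontargeting siCtrl#1 and siCtrl#2, Tsg101 was depleted with siTsg101#1 or siTsg101#2, and Vps28 was depleted with siVps28#1 or siVps28#2. Each siRNA was used in 3 independent experiments, which gave 18 libraries, and the controls went through the same transfection as the depleted cells. All libraries come from 1 cell line and from transient depletion, and every change below is a change of mRNA level, not of protein.

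Tsg101 and Vps28 are subunits of ESCRT-I, a complex that sorts ubiquitinated membrane cargo into endosomal vesicles bound for the lysosome and also takes part in closing the autophagosome. In autophagy, ATG8 proteins of the LC3 and GABARAP subfamilies are attached to lipid in the growing autophagosome membrane. Selective receptors carry a motif that binds ATG8 proteins and a domain that binds ubiquitin or another cargo signal, so that they tie cargo to the membrane and are themselves degraded with it. SQSTM1, NBR1, OPTN, TAX1BP1 and CALCOCO2 are receptors of this kind, whereas TP53INP2 is a nuclear protein that moves to autophagosomes, where it binds LC3 and GABARAP proteins and helps the membrane to form.

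The libraries held from 2561790 to 7466916 reads on genes (median 5022216). The depletions were checked first: TSG101 had 8, 14 and 34 counts with siTsg101#1 and 18, 16 and 30 with siTsg101#2, against 346, 516 and 688 with siCtrl#1. VPS28 had 12, 24 and 34 counts with siVps28#1, and siVps28#2 gave 35, 45 and 30, against 485, 364 and 514 with siCtrl#1. The epithelial markers KRT8, KRT18 and EPCAM and the intestinal factor CDX2 had counts in every library, whereas KRT19, CDH1 and VIL1 had at most 2 counts in any library. Of the leukocyte, fibroblast and endothelial markers examined, PTPRC, CD3E, DCN and CDH5 had no count in any library, and the highest count of the others was 11, for COL1A1.

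Levels are given as CPM, a gene's counts scaled to a common library size, after TMM normalization, and differences as log2 fold changes from edgeR's quasi-likelihood fit of all 18 libraries, with the standard error (SE) and the Benjamini-Hochberg adjusted p-value. A gene was called when its difference reached 1.5-fold and its adjusted p-value was under 0.05. The panel amplifies 1 short stretch of each target, so CPM values are compared for the same gene between groups and never between genes. Fewer cells of a kind and less RNA per cell cannot be told apart in bulk RNA. Where the libraries of groups are said to lie apart, the share of all tested genes that separate likewise was not determined.

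With siTsg101#1, 4 of the 9 measured members were called higher, namely GABARAP, GABARAPL1, OPTN and TP53INP2, while 11.6% of all tested genes were called higher and 10.1% lower. With siTsg101#2 the 4 members called higher were GABARAP, OPTN, SQSTM1 and TP53INP2, against 10.1% of all genes higher and 6.94% lower. Vps28 depletion gave 3 members called higher with siVps28#1 (OPTN, SQSTM1 and TP53INP2; 4.85% of all genes higher, 3.78% lower). It gave 5 with siVps28#2 (GABARAPL1, GABARAPL2, OPTN, SQSTM1 and TP53INP2; 7.09% of all genes higher, 6.22% lower). None of the 9 was called lower with any of the 4 on-target siRNAs. OPTN and TP53INP2 were called higher with all 4, a pattern shown by 2.55% of the tested genes, with 1.56% called lower by all 4, and with single libraries left out the number of such members was 2 to 3, reaching 3 without siCtrl#1 replicate 2 or 3. When the 4 on-target siRNAs were averaged and set against siCtrl#1, GABARAPL1, OPTN, SQSTM1 and TP53INP2 were called higher, against a background of 8.4% higher and 6.57% lower. The median log2 change of the 9 members in that contrast was 0.59, with a range from 0.02 to 1.92, beside a median of -0.0079 over all tested genes. No member was called between siCtrl#2 and siCtrl#1, by edgeR or by DESeq2, while 1.4% of all genes were called higher and 0.664% lower between these controls. At an unadjusted p under 0.05, 1 of the 9 differed between the controls, TP53INP2, and the share of all genes at that threshold was not determined.

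**Figure D1:**
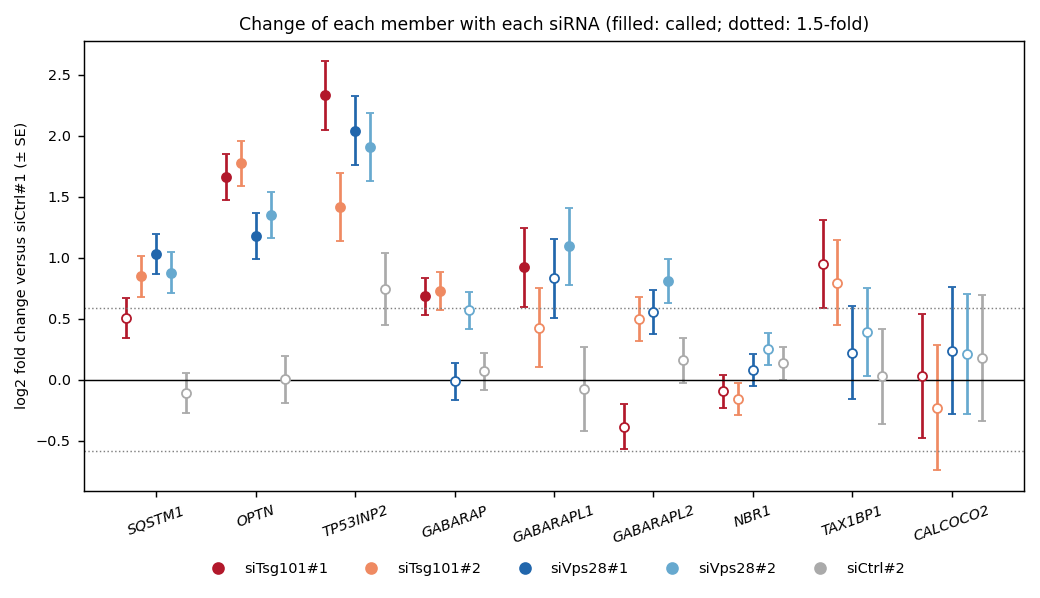
Log2 fold change of each of the 9 measured members against siCtrl#1 (y axis, points with SE bars) for the 4 on-target siRNAs and siCtrl#2, n = 3 libraries per siRNA. Filled points passed both thresholds and dotted lines mark 1.5-fold; OPTN and TP53INP2 are filled for all 4 on-target siRNAs, whereas NBR1 and CALCOCO2 have no filled point.

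The letters before the starts of all 10 named genes, MAP1LC3B included, were searched for motifs of factors known to drive autophagy, stress and inflammatory genes. The 1000 bases before the start of each gene's canonical transcript were read from GRCh37 on both strands, for 19864 genes. The AP-1 motif TGANTCA was present before CALCOCO2, GABARAPL1 and SQSTM1 and before 20.3% of all genes. The E-box CACGTG, which MiT-TFE factors among others bind, was present before GABARAP and TP53INP2 and before 18.5% of all genes. The longer form TCACGTGA, which contains the E-box, was found before 1.93% of all genes and before no member. The antioxidant element core TGACNNNGC, which can overlap the AP-1 motif, was found before CALCOCO2, MAP1LC3B and SQSTM1 and before 32.5% of all genes, and the kappaB motif before GABARAPL2, MAP1LC3B, OPTN, SQSTM1 and TP53INP2 and before 30.1%. One stretch for each of the 4 members called higher in the mean of the on-target siRNAs is shown, with the match in capitals. They lie at chr10:13142040-13142109 (OPTN, kappaB motif), chr5:179247525-179247591 (SQSTM1, AP-1, 350 bases before the start), chr20:33291331-33291396 (TP53INP2, E-box) and chr12:10364937-10365003 (GABARAPL1, AP-1), all on the forward strand of GRCh37.
OPTN: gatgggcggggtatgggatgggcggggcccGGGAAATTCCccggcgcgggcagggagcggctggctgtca
SQSTM1: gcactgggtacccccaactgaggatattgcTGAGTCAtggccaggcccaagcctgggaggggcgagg
TP53INP2: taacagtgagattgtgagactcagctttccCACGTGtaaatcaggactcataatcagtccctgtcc
GABARAPL1: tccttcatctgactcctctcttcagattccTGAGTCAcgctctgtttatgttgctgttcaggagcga
The OPTN match began 93 bases before the start, the GABARAPL1 match 509 and the TP53INP2 match 787. All these distances are to the start of the canonical transcript, which can differ from the outer bounds of the gene given below. The OPTN and SQSTM1 stretches lie inside those outer bounds, whereas the TP53INP2 and GABARAPL1 stretches lie before them. Other matches before these genes are not shown, among them kappaB matches 561 bases before the TP53INP2 start and 903 before that of SQSTM1. In SQSTM1 the AP-1 match lies inside a match of the antioxidant element core on the reverse strand. A match describes the letters only, and binding of any factor was not measured.

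SQSTM1 (ENSG00000161011), the sequestosome receptor that binds ubiquitinated proteins and also holds KEAP1, lies on chromosome 5 of GRCh37 from 179233398 to 179265078 on the forward strand. Its level in replicates 1, 2 and 3 was 948, 1484 and 1531 CPM with siCtrl#1 and 1285, 1213 and 1185 CPM with siCtrl#2. With siTsg101#1 it was 1998, 1683 and 1942 CPM and with siTsg101#2 2417, 2376 and 2335 CPM. With siVps28#1 it was 2518, 2973 and 2592 CPM and with siVps28#2 2727, 2521 and 2039 CPM. All 12 on-target libraries lay above all 6 control libraries, and siTsg101#1 was the lowest of the on-target groups, below each library of siTsg101#2. The log2 change was 0.85 (SE 0.16, adjusted p = 0.000759) with siTsg101#2, 1.03 (SE 0.17, adjusted p = 0.000238) with siVps28#1 and 0.88 (SE 0.16, adjusted p = 0.000709) with siVps28#2. With siTsg101#1 it was 0.50 (SE 0.16, adjusted p = 0.0259), a 1.42-fold difference that did not reach 1.5-fold. In the mean of the on-target siRNAs SQSTM1 was 1.76-fold higher, and the difference on the log2 scale was between 0.53 and 1.34 in each of the 3 batches, computed from log2(CPM + 1). The lowest siCtrl#1 library was replicate 1, the reference of the batch with the largest difference. Exons of SQSTM1 overlap those of MRNIP and MGAT4B on the opposite strand over 1687 bases. Of the canonical transcript of SQSTM1 55.9% is found in MRNIP transcripts as the reverse complement. The strand setting of the counting is not given in the sources used here. MRNIP had a log2 change of -0.41 (SE 0.19, adjusted p = 0.126) in the mean of the on-target siRNAs.

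OPTN (ENSG00000123240), the optineurin receptor that takes part in clearing bacteria and damaged mitochondria and is phosphorylated by TBK1, lies on chromosome 10 from 13141449 to 13180308 on the forward strand. With siCtrl#1 it was measured at 30.2, 26.8 and 38.5 CPM and with siCtrl#2 at 24.9, 34.6 and 36.7 CPM. Tsg101 depletion gave 121, 84.8 and 99.6 CPM with siTsg101#1 and 107, 114 and 107 CPM with siTsg101#2. Vps28 depletion gave 63.5, 65.4 and 89.1 CPM with siVps28#1 and 83.8, 75.8 and 86.0 CPM with siVps28#2. The lowest on-target library was therefore well clear of the highest control library, and the control siRNAs overlapped. OPTN was 3.16-fold higher with siTsg101#1 (log2 1.66, SE 0.19, adjusted p = 9.26e-07) and 3.42-fold higher with siTsg101#2 (log2 1.77, SE 0.19, adjusted p = 5.25e-07). It was 2.27-fold higher with siVps28#1 (log2 1.18, SE 0.19, adjusted p = 0.000204) and 2.55-fold higher with siVps28#2 (log2 1.35, SE 0.19, adjusted p = 2.68e-05). In the mean of the 4 the log2 change was 1.49 (SE 0.16), and within batches it ran from 1.28 to 1.60. Exons of OPTN overlap genes of the opposite strand over 251 bases.

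TP53INP2 (ENSG00000078804) lies on chromosome 20 from 33292143 to 33301243 on the forward strand, and no exon of another gene overlaps it. Against siCtrl#1 it was the member with the largest mean change. Its level was 5.68, 12.3 and 7.53 CPM with siCtrl#1 and 17, 11.4 and 13.3 CPM with siCtrl#2, from 25 to 69 counts per library. It was 51.4, 33.3 and 41.3 CPM with siTsg101#1 and 21.5, 27.5 and 17.4 CPM with siTsg101#2. With siVps28#1 it was 27.7, 34.2 and 40.4 CPM, and with siVps28#2 37.3, 34.7 and 21.2 CPM. The 12 on-target libraries lay above the 6 control libraries, but the gap between the highest siCtrl#2 library and the lowest siTsg101#2 library was small. The log2 change was 2.33 (SE 0.28, adjusted p = 2.15e-06) with siTsg101#1, 1.42 (SE 0.28, adjusted p = 0.000912) with siTsg101#2, 2.04 (SE 0.28, adjusted p = 3.94e-05) with siVps28#1 and 1.91 (SE 0.28, adjusted p = 4.98e-05) with siVps28#2. In the mean of the 4 it was 1.92 (SE 0.24), with 1.32 to 2.34 within batches, and the mean was 3.80-fold higher. With siCtrl#2 as the reference the mean change was 1.18 (2.27-fold, adjusted p = 0.000641), below that of OPTN with the same reference (1.49). With siCtrl#2 the level was 0.74 (SE 0.30, adjusted p = 0.23) above siCtrl#1, and with siCtrl#2 as the reference the change with siTsg101#2 was 0.68 (adjusted p = 0.0814) and was no longer called, while the other 3 siRNAs were.

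**Figure D2:**
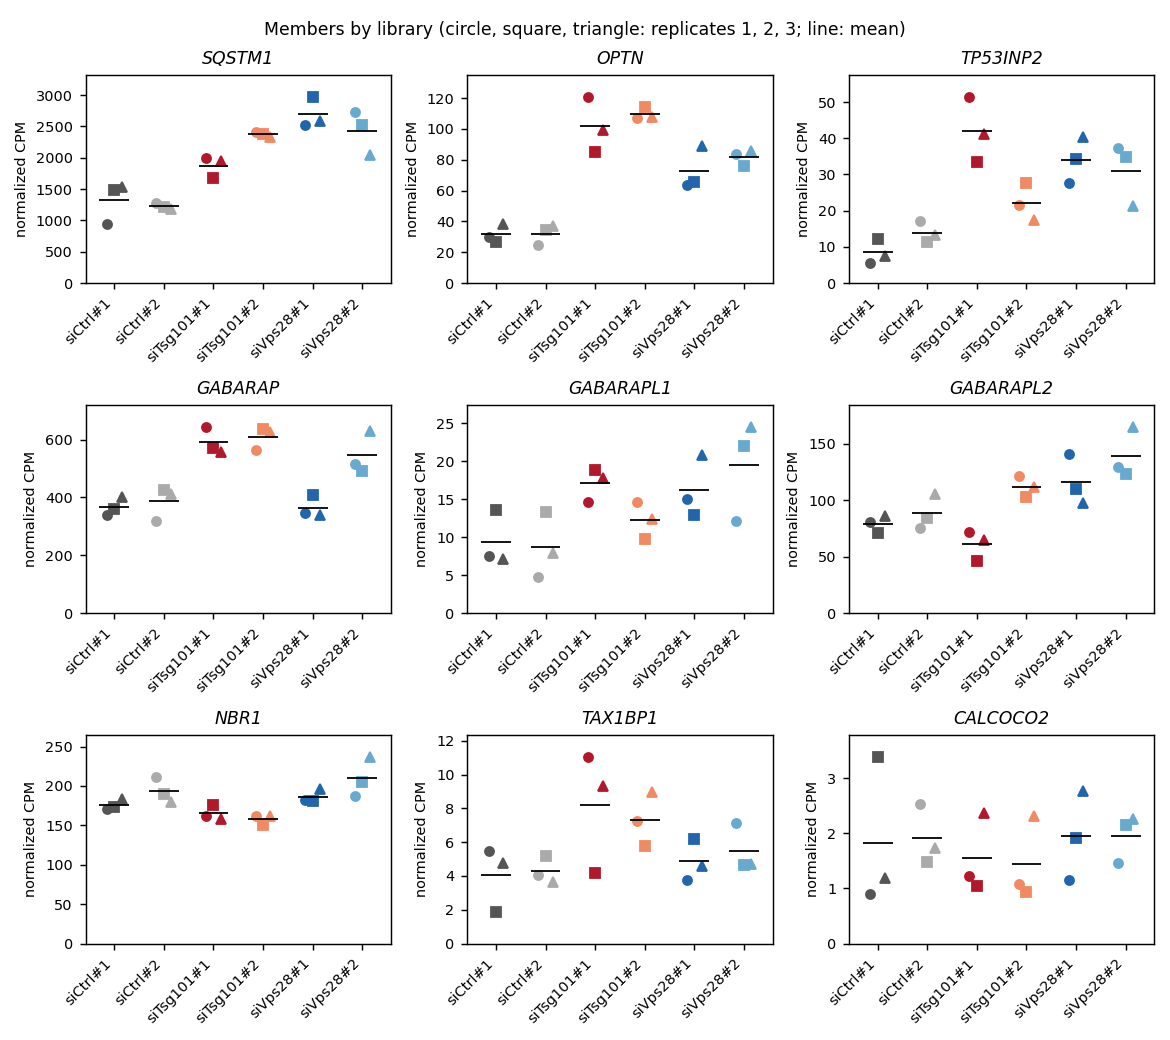
Normalized CPM of the 9 measured members in each of the 18 libraries (y axes from 0, a separate scale for each gene) by siRNA group (x axis); symbols mark replicates and lines the mean of 3. For SQSTM1, OPTN and TP53INP2 every on-target library lies above every control library, whereas the CALCOCO2 groups overlap throughout. The share of all tested genes with such a separation was not determined.

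NBR1 (ENSG00000188554), a ubiquitin-binding receptor that works beside SQSTM1 and takes part in clearing peroxisomes, lies on chromosome 17 from 41322498 to 41363708 on the forward strand. Its level varied little, from 171 to 184 CPM with siCtrl#1, 180 to 211 CPM with siCtrl#2, 158 to 176 CPM with siTsg101#1, 150 to 162 CPM with siTsg101#2, 181 to 196 CPM with siVps28#1 and 187 to 236 CPM with siVps28#2. No siRNA gave a call. In the mean of the 4 the log2 change was 0.02 (95% interval -0.20 to 0.24). A 1.5-fold change of the mean in either direction lies outside that interval. The mean averages groups on opposite sides of siCtrl#1 (176 CPM). The group means were 165 CPM with siTsg101#1 and 158 CPM with siTsg101#2, but 186 CPM with siVps28#1 and 210 CPM with siVps28#2. With siCtrl#2 the group mean was 194 CPM. Exons of NBR1 overlap a gene of the opposite strand over 463 bases.

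TAX1BP1 (ENSG00000106052), a receptor that also recruits the deubiquitinase TNFAIP3 in inflammatory signaling, lies on chromosome 7 from 27778950 to 27884183 on the forward strand. It was read shallowly, with 24, 6 and 28 counts with siCtrl#1 and 16, 21 and 19 counts with siCtrl#2. Tsg101 depletion gave 27, 16 and 67 counts with siTsg101#1 and 47, 37 and 54 counts with siTsg101#2. The mean level was 8.19 ± 3.55 CPM (SD, n = 3) with siTsg101#1 and 7.32 ± 1.59 CPM with siTsg101#2, against 4.03 ± 1.92 CPM with siCtrl#1. The 3 siTsg101#2 libraries lay above all 6 control libraries, and those of the other on-target groups overlapped them. The log2 change was 0.95 (SE 0.36, adjusted p = 0.0554) with siTsg101#1 and was called with the replicate number as a block (0.96, adjusted p = 0.0367). It was 0.80 (SE 0.35, adjusted p = 0.11) with siTsg101#2, 0.22 with siVps28#1 and 0.39 with siVps28#2, none of them called.

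CALCOCO2 (ENSG00000136436), a receptor for bacteria and damaged organelles, lies on chromosome 17 from 46908380 to 46943884 on the forward strand. Between 3 and 17 counts per library were found, and the group means lay from 1.44 CPM (siTsg101#2) to 1.96 CPM (siVps28#2), with every on-target group overlapping both controls. The change in the mean of the 4 was 0.06, with a 95% interval from -0.79 to 0.91, which includes a 1.5-fold change in either direction.

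GABARAP (ENSG00000170296), the ATG8 protein after which its subfamily is named, lies on chromosome 17 from 7143327 to 7145768 on the reverse strand. Its level was 339, 360 and 403 CPM with siCtrl#1 and 320, 425 and 413 CPM with siCtrl#2. It was 643, 571 and 556 CPM with siTsg101#1, and 563, 637 and 626 CPM with siTsg101#2. With siVps28#1 it was 345, 408 and 340 CPM, and with siVps28#2 517, 492 and 629 CPM. Libraries of both siTsg101 siRNAs and of siVps28#2 lay above all controls, while those of siVps28#1 lay among the controls. The change was 1.61-fold with siTsg101#1 (log2 0.68, SE 0.15, adjusted p = 0.00195) and 1.66-fold with siTsg101#2 (log2 0.73, SE 0.15, adjusted p = 0.00149). With siVps28#2 it was 1.48-fold (adjusted p = 0.0116), just under the threshold, and with siVps28#1 it was 0.992-fold (log2 interval -0.33 to 0.30). In the mean of the 4 the log2 change was 0.49 (SE 0.12, adjusted p = 0.0054), a 1.41-fold difference and so not called. Of the canonical transcript of GABARAP 68.2% is found in transcripts of other annotated genes, among them ENSG00000262526, which overlaps it on the same strand over 691 bases, and whether the stretch read by the panel lies in the shared part was not known.

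GABARAPL1 (ENSG00000139112), a GABARAP paralog that is often followed as a stress-responsive autophagy transcript, lies on chromosome 12 from 10365057 to 10375727 on the forward strand. Its level was 7.50, 13.5 and 7.19 CPM with siCtrl#1 and 4.83, 13.3 and 7.89 CPM with siCtrl#2. It was 14.7, 18.9 and 17.9 CPM with siTsg101#1 and 14.7, 9.80 and 12.4 CPM with siTsg101#2. With siVps28#1 it was 15, 12.9 and 20.8 CPM, and with siVps28#2 12.2, 22.0 and 24.5 CPM. Replicate 2 was the highest library of both controls, and among the on-target siRNAs only the siTsg101#1 libraries lay above all controls. The log2 change was 0.92 (SE 0.32, adjusted p = 0.0389) with siTsg101#1 and 1.09 (SE 0.32, adjusted p = 0.0196) with siVps28#2, both called. It was 0.43 (adjusted p = 0.371) with siTsg101#2 and 0.83 (SE 0.33, adjusted p = 0.119) with siVps28#1, neither called. In the mean of the 4 it was 0.82 (SE 0.27, adjusted p = 0.0283), and this call was lost without siCtrl#1 replicate 1 (0.69, adjusted p = 0.152) or replicate 3 (0.64, adjusted p = 0.174). The siTsg101#1 call was lost without siCtrl#1 replicate 1 or 3 or without siTsg101#1 replicate 2 or 3, with log2 values from 0.75 to 0.89, and the siVps28#2 call without siCtrl#1 replicate 1 or 3 or without siVps28#2 replicate 2 or 3, with values from 0.90 to 1.00. Between 19 and 141 counts per library were found. Exons of GABARAPL1 overlap the antisense gene GABARAPL1-AS1 over 329 bases, and 6.85% of its canonical transcript is found in GABARAPL3.

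GABARAPL2 (ENSG00000034713), the third GABARAP paralog, which is also known for a role in transport within the Golgi, lies on chromosome 16 from 75600273 to 75611779 on the forward strand, with no overlapping exon of another gene. Its level was 80.7, 71.1 and 85.9 CPM with siCtrl#1 and 75.9, 84.3 and 105 CPM with siCtrl#2. It was 72.3, 46.2 and 64.6 CPM with siTsg101#1 but 122, 103 and 112 CPM with siTsg101#2. With siVps28#1 it was 141, 110 and 98.1 CPM, and with siVps28#2 130, 124 and 165 CPM. The siTsg101#1 libraries lay below all siCtrl#2 libraries and overlapped those of siCtrl#1, and the siVps28#2 libraries lay above all controls. Only siVps28#2 gave a call against siCtrl#1 (log2 0.81, SE 0.18, adjusted p = 0.00328). The change was 0.55 (SE 0.18, adjusted p = 0.0568) with siVps28#1, 0.50 (SE 0.18, adjusted p = 0.0517) with siTsg101#2 and -0.38 (SE 0.19, adjusted p = 0.134) with siTsg101#1.

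The depletions were then compared with each other, as the mean of both siTsg101 siRNAs against the mean of both siVps28 siRNAs. GABARAPL2 was called, lower upon Tsg101 depletion by 0.62 on the log2 scale (log2 difference -0.62, SE 0.13, adjusted p = 0.00177). No member was called higher, and over all genes 4.12% were called higher and 2.08% lower upon Tsg101 than upon Vps28 depletion. The GABARAPL2 difference was between -0.75 and -0.53 in each of the 3 batches. It fell under 1.5-fold without siVps28#1 replicate 1 (-0.54), siTsg101#1 replicate 2 (-0.54) or siVps28#2 replicate 3 (-0.56). The siTsg101 siRNAs also differed from each other for this gene, with siTsg101#1 lower by 0.88 (log2 difference -0.88, SE 0.18, adjusted p = 0.00351). The mean with siTsg101#1 was 61.0 ± 13.4 CPM, the lowest of the 4 (SD, n = 3). It was 112 ± 9.23 CPM with siTsg101#2, 117 ± 22.4 CPM with siVps28#1 and 139 ± 22.3 CPM with siVps28#2. The siTsg101#2 mean was thus close to that of siVps28#1, and the lower mean upon Tsg101 depletion came mainly from siTsg101#1.

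A further 3 members differed between the depletions with an adjusted p under 0.05 but by less than 1.5-fold. By the adjusted p alone 4 of the 9 members passed, beside 11.8% of all tested genes. GABARAP was higher upon Tsg101 depletion by 0.43 (SE 0.11, adjusted p = 0.0101) and OPTN by 0.45 (SE 0.13, adjusted p = 0.0198), whereas NBR1 was lower (log2 difference -0.29, SE 0.09, adjusted p = 0.0464). The NBR1 difference missed that threshold in 16 of 19 alternatives, with an adjusted p of up to 0.161, and the OPTN difference in 3 of 19, without siTsg101#1 replicate 1, siVps28#1 replicate 1 or siVps28#1 replicate 2, with an adjusted p of up to 0.0622. For NBR1 the 6 siTsg101 libraries (at most 176 CPM) lay just below all 6 siVps28 libraries (at least 181 CPM). How many of all tested genes separate in this way was not determined. The GABARAP groups overlapped, since siVps28#2 lay near the siTsg101 levels, and the OPTN groups overlapped as well. For TP53INP2 the difference was -0.10 (95% interval -0.46 to 0.26) and for SQSTM1 it was -0.28 (95% interval -0.52 to -0.04, adjusted p = 0.126), neither interval reaching 1.5-fold. TAX1BP1 differed by 0.57 (95% interval 0.06 to 1.07, adjusted p = 0.137), and without siTsg101#1 replicate 2 it was called (0.72, adjusted p = 0.0471). GABARAPL1 differed by -0.29 (95% interval -0.73 to 0.15) and CALCOCO2 by -0.33 (95% interval -1.05 to 0.40).

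**Figure D3:**
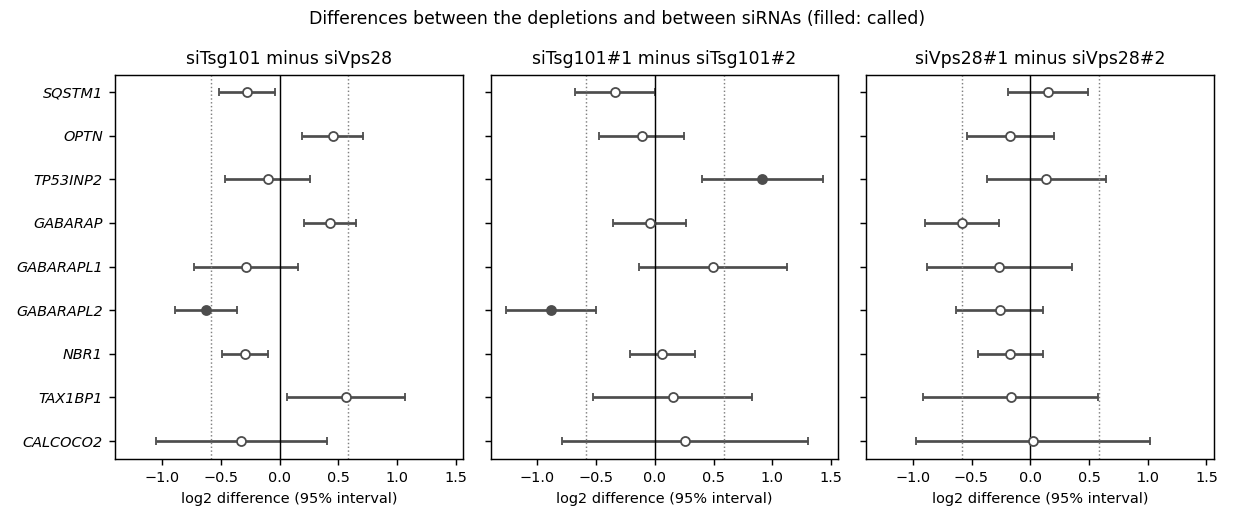
Log2 difference (x axis) with its 95% interval for the 9 measured members, from left to right between Tsg101 and Vps28 depletion, between the siTsg101 siRNAs and between the siVps28 siRNAs; filled points were called and dotted lines mark 1.5-fold. GABARAPL2 is filled on the left at -0.62 and in the middle panel at -0.88, where TP53INP2 is filled at 0.91, and no member is filled on the right.

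Between the siRNAs against the same subunit, siTsg101#1 gave a higher TP53INP2 level than siTsg101#2 (log2 0.91, SE 0.25, adjusted p = 0.0235) and a lower GABARAPL2 level, while 3.2% of all genes were called higher and 3.74% lower. The TP53INP2 difference was not called without replicate 1 or 3 of either siTsg101 siRNA, with log2 values from 0.76 to 0.92. Between siVps28#1 and siVps28#2 no member was called by edgeR or DESeq2, against 0.215% of genes higher and 0.273% lower. At an unadjusted p under 0.05, for which the share of all genes was not determined, only GABARAP differed. Its level was lower with siVps28#1 (log2 difference -0.58, SE 0.15, adjusted p = 0.106).

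The levels were ordered over the 6 groups by their means. For SQSTM1 the order was siVps28#1 (2694 ± 244 CPM, SD, n = 3), siVps28#2 (2429 ± 353), siTsg101#2 (2376 ± 41.1), siTsg101#1 (1874 ± 168), siCtrl#1 (1321 ± 324) and siCtrl#2 (1228 ± 51.8), and the ranges of neighbours were separate only on either side of siTsg101#1. For OPTN it was siTsg101#2 (110 ± 4.06 CPM), siTsg101#1 (102 ± 18.1), siVps28#2 (81.9 ± 5.39), siVps28#1 (72.7 ± 14.2), siCtrl#2 (32.1 ± 6.32) and siCtrl#1 (31.8 ± 6.04), with separate ranges only between siVps28#1 and siCtrl#2. For TP53INP2 the groups ran from siTsg101#1 (42.0 ± 9.07 CPM) through siVps28#1 (34.1 ± 6.33), siVps28#2 (31.1 ± 8.65), siTsg101#2 (22.1 ± 5.10) and siCtrl#2 (13.9 ± 2.87) to siCtrl#1 (8.51 ± 3.42), again with 1 gap, above siCtrl#2. GABARAP had its only gap between siVps28#2 (546 ± 72.9 CPM) and siCtrl#2 (386 ± 57.5), with siVps28#1 (364 ± 37.7) at the bottom. For GABARAPL1, GABARAPL2, NBR1, TAX1BP1 and CALCOCO2 the ranges of all neighbours in the order overlapped.

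The genes most like SQSTM1 over the 5 changes against siCtrl#1 were chosen by the smallest root mean square difference in log2 change. Among them were LDAF1 (0.10), ERN1 (0.13), a sensor of unfolded proteins in the endoplasmic reticulum, CLCN7 (0.14), a lysosomal chloride transporter, and CLN8 (0.15). For LDAF1 the log2 change was 0.67, 0.96, 1.02, 0.80 and -0.02 with siTsg101#1, siTsg101#2, siVps28#1, siVps28#2 and siCtrl#2. The 5 genes most like GABARAPL1 were MIDEAS (0.13), REL (0.13), a subunit of NFkB, LRRC73 (0.14), SLC67A1 (0.15) and PRSS22 (0.16). LRRC73 and SLC67A1 had 151 and 129 counts in all libraries together. All 5 changes share the siCtrl#1 libraries, so that likeness is given as a description only.

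Other ATG8 genes of the panel were examined beside the members. MAP1LC3A had 2 counts in all and MAP1LC3B2 none. MAP1LC3C (ENSG00000197769), on chromosome 1 from 242158792 to 242162400 on the reverse strand, was read at 262, 170 and 197 CPM with siCtrl#1 and 890, 374 and 596 CPM with siCtrl#2. It was 1109, 687 and 1006 CPM with siTsg101#1 but 74.0, 52.6 and 125 CPM with siTsg101#2. With siVps28#1 it was 346, 199 and 466 CPM, and with siVps28#2 305, 177 and 233 CPM. The siRNAs against Tsg101 thus lay on opposite sides of siCtrl#1, and siCtrl#2 lay above it. The log2 change was 2.15 (SE 0.33, adjusted p = 4.57e-05) with siTsg101#1, -1.32 (SE 0.33, adjusted p = 0.00588) with siTsg101#2 and 1.56 (SE 0.33, adjusted p = 0.00998) with siCtrl#2. It was 0.68 (adjusted p = 0.206) with siVps28#1 and 0.19 (adjusted p = 0.756) with siVps28#2. The mean of the 4 therefore averages opposite changes and was 0.43 (SE 0.26, adjusted p = 0.253). It was -1.14 with siCtrl#2 as the reference, so that its direction rests on the control. With that reference the siTsg101#1 change was 0.59 (adjusted p = 0.209), and the call between the controls was lost without siCtrl#1 replicate 2 (1.43, adjusted p = 0.0719) or 3 (1.52, adjusted p = 0.0512). Of its canonical transcript 18.1% is found in transcripts of other genes, 567 in number. Whether the stretch read by the panel lies in that shared part was not known.

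Of 11 genes for the attachment of ATG8 proteins to lipid, 2 were called higher and none lower in the mean of the 4 on-target siRNAs, beside 8.4% of all tested genes higher and 6.57% lower, and the median log2 change was -0.05. ATG12, a ubiquitin-like protein joined to ATG5, was higher by 0.71 (SE 0.14, adjusted p = 0.000764), and was also called with siCtrl#2 (0.73, SE 0.17, adjusted p = 0.0233); with siCtrl#2 as the reference its change was -0.02. ATG16L1, which brings the ATG12 and ATG5 conjugate to the membrane, was higher by 0.82 (SE 0.23, adjusted p = 0.0115). It differed between the depletions by 0.74 (SE 0.19, adjusted p = 0.0102), with 13.5 to 25 CPM over the 6 siTsg101 libraries and 9.23 to 18.6 CPM over the 6 siVps28 libraries. The ATG16L1 call was lost with siCtrl#2 as the reference (0.43, adjusted p = 0.191) or without siCtrl#1 replicate 1 (0.74, adjusted p = 0.0731).

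Of 16 further receptors of selective autophagy 15 were tested, with 2 called higher and 1 lower and a median of 0.25, so that their shares were near those of all genes (8.4% and 6.57%). By the adjusted p alone 6 of the 15 passed, beside 23.7% of all genes. FKBP8, a receptor in the outer mitochondrial membrane, was read at 110 to 134 CPM in the 6 siTsg101 libraries, 22.4 to 45.4 CPM in the 6 siVps28 libraries and 23.3 to 39.3 CPM in the 6 control libraries. It was 3.57-fold higher upon Tsg101 than upon Vps28 depletion (log2 1.84, SE 0.15, adjusted p = 1.11e-08), and its change with siVps28#1 (-0.01) and siVps28#2 (0.22) was not called. RETREG1 and RTN3, receptors for the endoplasmic reticulum, had log2 changes of 1.40 (SE 0.49, adjusted p = 0.0405) and -0.90 (SE 0.25, adjusted p = 0.00964). RETREG1 had at most 23 counts in any library and RTN3 at most 36. With siCtrl#2 as the reference these values were -0.12 and -0.04, neither called. Leaving out siCtrl#1 replicate 1 or 2 ended both calls. The RETREG1 call was also lost without siCtrl#1 replicate 3, siVps28#1 replicate 1, siTsg101#1 replicate 3, siTsg101#2 replicate 3 or siVps28#2 replicate 3, and with DESeq2 (1.43, adjusted p = 0.0674).

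Of 9 partners of the receptors 2 were called higher and none lower, with a median of 0.19, and both were called with all 4 on-target siRNAs. All tested genes gave 8.4% higher in the mean and 2.55% higher with all 4. TNIP1, a ubiquitin-binding partner of TNFAIP3 that is itself an autophagy cargo, rose by 0.98 (SE 0.14, adjusted p = 1.9e-05). NFE2L2, the transcription factor that KEAP1 holds back and that drives SQSTM1 among other genes, rose by 0.83 (SE 0.18, adjusted p = 0.00183), a difference that was 0.51 (adjusted p = 0.0514) and not called with siCtrl#2 as the reference. TBK1, the kinase that phosphorylates OPTN and SQSTM1, was called lower with siTsg101#1 (log2 change -0.61, SE 0.21, adjusted p = 0.0346) and with none of the other on-target siRNAs. KEAP1 had a log2 change of 0.35 (SE 0.11, adjusted p = 0.0246) in the mean of the 4, under 1.5-fold.

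**Figure D4:**
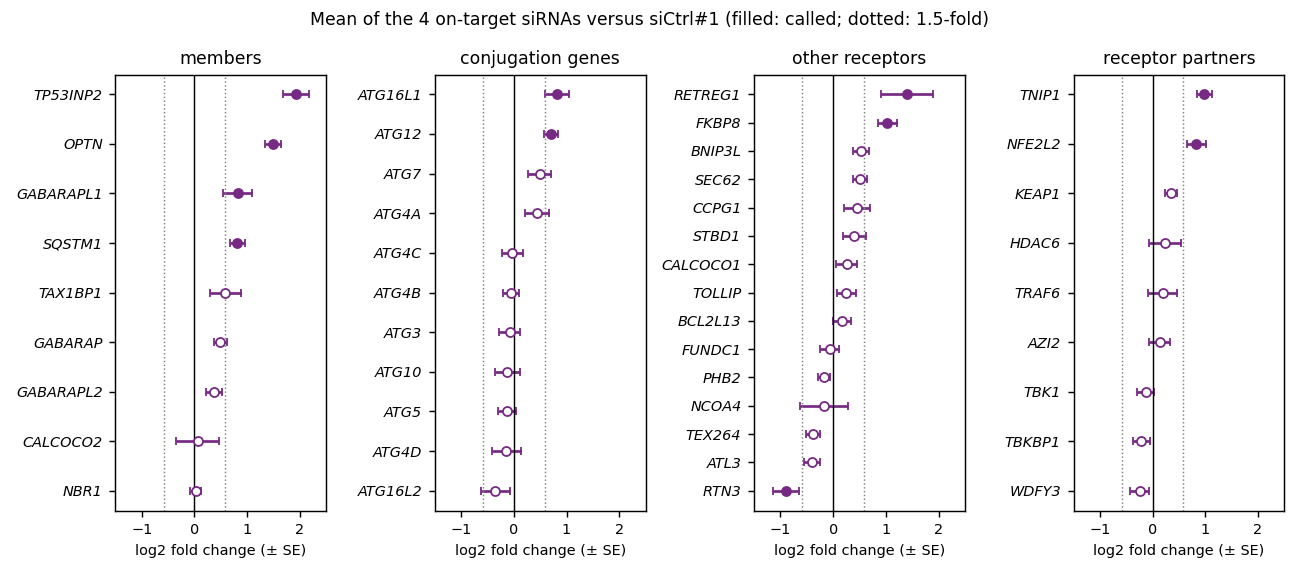
Log2 change relative to siCtrl#1, averaged over the 4 on-target siRNAs (x axis, SE bars) for the 9 measured members and, from left to right, 11 genes of ATG8 conjugation, 15 further receptors and 9 receptor partners. Filled points were called and dotted lines mark 1.5-fold; 4 members are filled, and all 9 lie at or above 0, from NBR1 (0.02) to TP53INP2 (1.92).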

How the data were processed

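The authors amplified cDNA with the Ion AmpliSeq Transcriptome panel, aligned the reads to its hg19 reference and counted them per target with HTSeq 0.6.0, as stated in the study's methods. The deposited values are raw counts, 1 file per library, and 45.4% to 46.7% of the reads were counted on genes. RefSeq identifiers were matched to symbols for 20228 of 20802 targets. Targets over 100 summed counts were kept, after the study's methods, and 386 noncoding ones left out, which left 10246. The counts were fitted with edgeR 4.0.16 in R 4.3.3, after TMM normalization, with the 6 siRNA groups in 1 model. Alternatives were DESeq2 1.42.0, RLE size factors, other filters and references, the adjusted p alone, fewer groups, the replicate block and each library left out.

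The labels give a replicate number, which was taken as the batch, and each such batch holds all 6 siRNAs. Over 45 pairs of same-numbered libraries the mean correlation of deviations from the group means was 0.15, against -0.08 for other pairs. The deviations within a group sum to 0, so the value for other pairs largely follows from the first and is no separate comparison. The main fit left the replicate block out, and the block was run as an alternative. Sequence shared with other genes was sought on both strands in 50-base stretches over the GENCODE annotation of GRCh37. Which stretch the panel reads was not known. Members and gene lists were chosen with earlier results of these data known. Named genes are the 10 members, TSG101, VPS28, the other MAP1LC3 genes, called genes of the lists and the 5 genes most like SQSTM1 and GABARAPL1, of which 1 is not reported here; MRNIP, TBK1 and KEAP1 were added after their values were seen. Counting precision follows the counts given, and reads without molecular identifiers are not independent molecules.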

Additional observations from a re-analysis of the deposited data

Results flagged for a closer look

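The mean of both siTsg101 siRNAs was tested against the mean of both siVps28 siRNAs with edgeR. By the adjusted p alone 4 members differed, beside 11.8% of all tested genes, and only GABARAPL2 reached 1.5-fold. GABARAPL2 was lower upon Tsg101 depletion (log2 difference -0.62, adjusted p = 0.00177), as was NBR1 (-0.29, adjusted p = 0.0464, missing 0.05 in 16 of 19 alternatives), while GABARAP (0.43, adjusted p = 0.0101) and OPTN (0.45, adjusted p = 0.0198) were higher. Among the listed genes of the pathway, ATG16L1 (0.74, adjusted p = 0.0102) and FKBP8 (1.84, adjusted p = 1.11e-08) were higher upon Tsg101 depletion. The siRNAs against Tsg101 differed from each other, siTsg101#1 against siTsg101#2, for GABARAPL2 (-0.88, adjusted p = 0.00351), TP53INP2 (0.91, adjusted p = 0.0235) and MAP1LC3C (3.48, adjusted p = 1.56e-06). The GABARAPL2 mean was 61.0 CPM with siTsg101#1 and 112 CPM with siTsg101#2, beside 117 CPM with siVps28#1 and 139 CPM with siVps28#2. The lower GABARAPL2 mean upon Tsg101 depletion thus came mainly from siTsg101#1.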

How the results depend on the processing

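OPTN, SQSTM1 and TP53INP2 were called higher in the mean of the on-target siRNAs under all 23 alternatives run for that contrast. With the replicate block 4 members were called in that mean, as without it; among the members' comparisons with controls and with each other, the block added only the TAX1BP1 call with siTsg101#1, for 5 calls with that siRNA. With the adjusted p alone, 4 members differed between the depletions (11.8% of all genes), and 6 of the further receptors passed in the mean (23.7% of all genes). That count of receptors was 1 with at least 10 counts in every library and 1 when both nontargeting siRNAs were averaged as the reference. The count of conjugation genes was 1 with that reference and 0 with siCtrl#2.

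Signs turned for small or opposed changes in the mean of the 4. With siCtrl#2 as the reference the log2 changes were -0.12 for NBR1, -0.11 for CALCOCO2, -1.14 for MAP1LC3C, -0.019 for ATG12 and -0.12 for RETREG1. With both controls averaged they were -0.047 for NBR1, -0.026 for CALCOCO2 and -0.36 for MAP1LC3C. With 1 library left out at a time, CALCOCO2 ranged from -0.24 to 0.70 and NBR1 from -0.0029 to 0.052, and the difference of MAP1LC3C between the depletions from -0.22 to 0.14. The same omissions gave 1 to 2 conjugation genes, 1 to 3 further receptors, 0 to 1 members between the depletions and 1 to 2 between the siTsg101 siRNAs. Members called in the mean numbered 3 to 4, with siTsg101#1 3 to 5, with siVps28#1 3 to 4 and with siVps28#2 4 to 6. The low counts of CALCOCO2 and TAX1BP1 limit both genes, and both were dropped with at least 10 counts in every library. Fits of only the groups compared were not run for the mean of the 4. Where 1 library was left out, the remaining spread was shared over all groups.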
